A study of Mus musculus with 8 samples.

Results

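Fkbp5, Zbtb16, Hif3a, Ddit4, Tsc22d3, Sgk1, Mt1, Mt2 and Bcl2l1 are genes whose transcription is known to respond to glucocorticoid hormones. These 9 of the 32285 genes in the files were selected on measured values: earlier results of the same data showed several of them at low levels in the libraries labelled Tg female. Their differences between libraries are therefore given as a description with no test. Differences between cell types within the same libraries, on which the members were not proposed, were tested.

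The data are nuclear RNA of single nuclei from adult mouse heart, captured in 10x Genomics droplets and counted as unique molecular identifiers (UMIs, 1 per captured RNA molecule). The series has 8 libraries, 2 for each combination of sex and genotype in the labels: wild-type hearts without a transgene (nTg) and hearts that constitutively express cyclin A2 (Ccna2) from a transgene (Tg), in females and in males. The promoter that drives the transgene, the age of the mice and the number of hearts in a library are not given in the sources used here. Counts that match their own barcode list were found for 5 libraries, and values below follow one order: the first nTg female library, then both of Tg female (1, 2), then both of Tg male (1, 2).

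Glucocorticoids of the adrenal cortex enter cells and bind the glucocorticoid receptor (Nr3c1), a transcription factor held in the cytoplasm by heat shock proteins until the hormone arrives. The receptor then moves to the nucleus, binds DNA as a dimer at paired hexamers, and raises the transcription of its targets. Among these are feedback proteins that dampen the receptor itself, transcription factors, an inhibitor of the growth kinase mTOR, a kinase that controls ion transport, and metal-binding proteins. In mouse the hormone is corticosterone, its blood level follows the time of day and rises with stress or handling, and the heart also carries the mineralocorticoid receptor (Nr3c2), which binds the same hormone. Fkbp5 (ENSMUSG00000024222, chr17:28399094-28517527, minus strand), Zbtb16 (ENSMUSG00000066687, chr9:48654297-48836222, minus), Hif3a (ENSMUSG00000004328, chr7:17031507-17062427, minus), Ddit4 (ENSMUSG00000020108, chr10:59949669-59951834, minus), Tsc22d3 (ENSMUSG00000031431, chrX:140539528-140600659, minus), Sgk1 (ENSMUSG00000019970, chr10:21882184-21999903, plus), Mt1 (ENSMUSG00000031765, chr8:94179082-94180327, plus), Mt2 (ENSMUSG00000031762, chr8:94172664-94173568, plus) and Bcl2l1 (ENSMUSG00000007659, chr2:152780668-152831728, minus) are protein-coding genes, with positions in GRCm38. Fkbp5 overlaps 2 other annotated genes, AC154912.5 on its own strand and AC154912.1 on the opposite strand. Mt2 overlaps 1, Gm45774, on the opposite strand. Part of the Fkbp5 UMIs is therefore uncertain, and the effect of the opposite-strand overlaps on the counts was not examined.

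Promoter sequence is shown for 4 members, to set the 1 member with a full receptor element next to the pair of metallothionein genes and to Fkbp5, which differed between libraries in every cell type. The stretches end just before a RefSeq transcription start in GRCm38.p6, are written 5′ to 3′ on the gene's strand, and carry the matches in capitals. Only the Mt1 stretch stops short of the start: 243 of its 250 bases are shown, up to an annotated untranslated region.
Sgk1 (chr10:21993640-21993889, plus): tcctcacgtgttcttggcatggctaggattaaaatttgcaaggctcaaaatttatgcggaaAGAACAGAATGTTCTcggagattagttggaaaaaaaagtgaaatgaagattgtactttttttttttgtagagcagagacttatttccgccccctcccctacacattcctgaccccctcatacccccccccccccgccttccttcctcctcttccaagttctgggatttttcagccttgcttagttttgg
Mt2 (chr8:94172368-94172617, plus): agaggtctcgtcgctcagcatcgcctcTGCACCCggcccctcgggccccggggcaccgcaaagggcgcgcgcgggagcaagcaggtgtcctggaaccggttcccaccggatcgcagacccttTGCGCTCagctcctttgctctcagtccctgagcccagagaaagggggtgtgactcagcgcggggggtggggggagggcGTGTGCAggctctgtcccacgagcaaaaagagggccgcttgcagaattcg
Mt1 (chr8:94178839-94179081, plus): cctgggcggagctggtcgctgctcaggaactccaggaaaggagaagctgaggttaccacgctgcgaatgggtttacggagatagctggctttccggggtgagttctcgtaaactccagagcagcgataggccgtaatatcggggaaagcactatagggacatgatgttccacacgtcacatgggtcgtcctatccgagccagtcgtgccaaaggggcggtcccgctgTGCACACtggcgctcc
Fkbp5 (chr17:28486150-28486399, minus): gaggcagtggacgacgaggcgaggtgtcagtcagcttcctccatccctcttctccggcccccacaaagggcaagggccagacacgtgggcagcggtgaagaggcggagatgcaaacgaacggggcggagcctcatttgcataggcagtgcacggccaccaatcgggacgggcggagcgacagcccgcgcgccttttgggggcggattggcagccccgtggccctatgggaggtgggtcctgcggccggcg
In Sgk1 the capitals mark a full glucocorticoid response element, the hexamer AGAACA, any 3 bases and TGTTCT, 174 to 189 bases before a start that lies inside the annotated gene. A further TGTTCT near the 5′ end is left in lower case. In Mt1 and Mt2 they mark metal response elements, TGCACNC or TGCGCNC on either strand, the known sites of the zinc-sensing factor Mtf1. Mt2 held 3 of these and Mt1 1, while the Fkbp5 stretch held neither kind of element and neither single hexamer. A promoter each of Hif3a, Ddit4 and Bcl2l1, not shown, also held 1 metal response element, as many as Mt1. Over all 32851 mouse promoters of this length (250 bases), the full element occurred in 3 (0.00913%), a single hexamer on either strand, which the full element contains, in 16.1%, and a metal response element in 21.4%, with 3 or more of them in 1.26%. Promoters were found in the table for 8 of the 9 members, and 1 of the 6 Sgk1 promoters was the only one of these with the full element. A match is a description of letters, and receptor sites of such genes can lie far from the start.

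The matrices of nTg female 2, nTg male 1 and nTg male 2 repeated those of Tg female 2, Tg male 1 and Tg male 2 value for value, did not have the same number of columns as their own barcode lists, and were not used. The 5 retained libraries held 25045167 to 38593706 UMIs and 5773 to 8817 nuclei after filtering, with median depths of 2140.5 to 3053 UMIs per nucleus. Pairs of libraries shared 14 to 28 barcodes. Ccna2 went against 2 labels: in counts per 1000000 UMIs (CPM), cardiomyocyte nuclei held 444 of it in the first nTg female library and 0.524 in Tg female 1, against 828, 232 and 143 in the other 3, so libraries are called by their labels only and no result is read as one of genotype. Xist and Y-linked genes matched the labelled sex in all 5. Clusters were named from fixed markers, without the members among the clustering genes, as fibroblast-like (11566 nuclei), endothelial-like (6839), cardiomyocyte-like (6557), macrophage-like (2565), pericyte-like (2182), endocardial-like (1345), lymphatic endothelial-like (767) and smooth muscle-like (518), and the suffix is left out below. Levels are CPM of the UMIs summed over a type in a library. They are not divided by gene length, so levels are compared within a gene only.

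**Figure D1:**
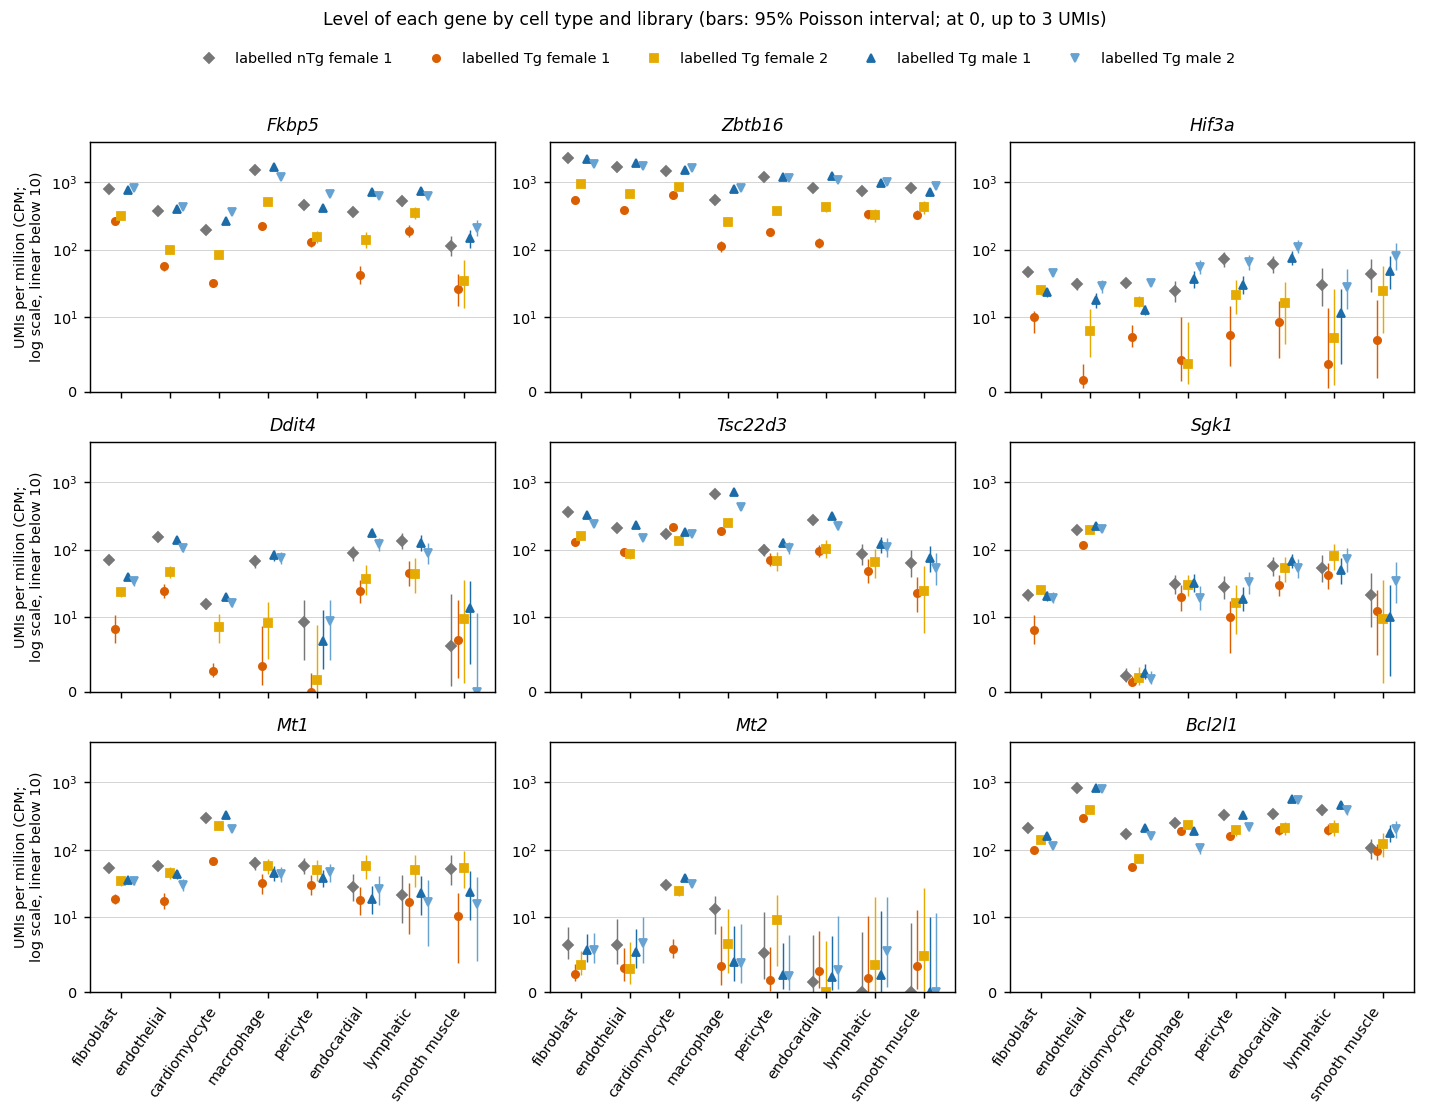
Level of each of the 9 genes (CPM, on a log axis that is linear below 10) in 8 cell types, with 1 point per library by label and bars for the 95% Poisson interval, which covers counting error only (at a count of 0, a bar up to the level of 3 UMIs). For Fkbp5 and Zbtb16 the points of the libraries labelled Tg female lie under those of the other 3 libraries in all 8 types, and for Mt1 the Tg female and Tg male points overlap in 7 of 8.

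In each type, levels were compared with the mean of the other 7 types in edgeR's quasi-likelihood test, with the library as a block and p-values adjusted over 13963 genes, so each type is set against the others within the same 5 libraries. Fkbp5 and Tsc22d3 were higher in macrophages, Zbtb16 was higher in fibroblasts and cardiomyocytes, Sgk1, Ddit4 and Bcl2l1 in endothelium, and the metallothioneins in cardiomyocytes. In fibroblasts, 3 of the 9 members passed the test as higher and 3 as lower, against 29.2% and 25.6% of all genes. In endothelial nuclei 4 were higher and 2 lower (background 30.1% and 26%), in cardiomyocytes 4 and 4 (41% and 36.5%), and in macrophages 3 and 1 (31% and 30.3%). The counts were 0 and 3 in pericytes (21.9% and 23.6%), 4 and 2 in endocardium (21.6% and 14.9%), 3 and 4 in lymphatic endothelium (19% and 17.2%) and 0 and 4 in smooth muscle (18.3% and 16.1%). With background shares of this size the counts are no result about the members as a list, and the values of the single genes follow. CPM levels are scaled to total UMIs and the test values to TMM, so the order of the types can differ between these scales. Scaling to total UMIs in place of TMM moved the median log2 difference of all genes from 0.00 to −0.58 in cardiomyocytes, from −0.01 to 0.16 in fibroblasts, from −0.03 to 0.09 in endocardium, from −0.08 to 0.10 in lymphatic endothelium and from −0.10 to −0.21 in smooth muscle. The share of higher among called genes went from 52.9% to 30.2% in cardiomyocytes; it went from 53.3% to 70.0% in fibroblasts, from 59.2% to 71.7% in endocardium and from 52.5% to 70.5% in lymphatic endothelium.

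**Figure D2:**
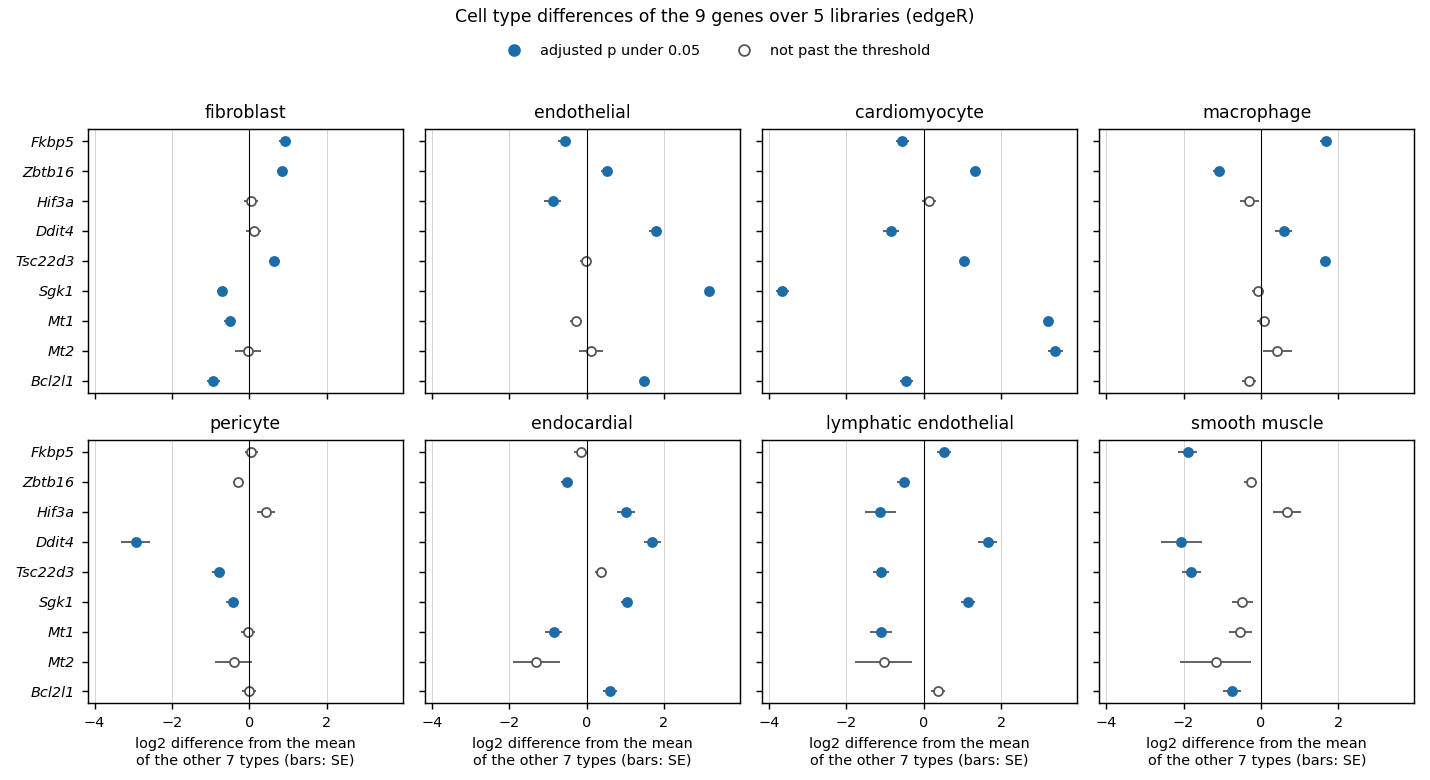
Log2 difference of each gene in a cell type from the mean of the other 7 types (edgeR, 5 libraries as blocks), with bars of 1 standard error and filled points for adjusted p under 0.05. Sgk1 spans from −3.65 in cardiomyocytes to 3.17 in endothelial nuclei, and Mt1 and Mt2 stand at 3.22 and 3.40 in cardiomyocytes.

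Fkbp5 encodes a co-chaperone that binds the receptor complex through Hsp90, lowers its affinity for hormone and closes a short feedback loop. In macrophages Fkbp5 reached 1527 CPM in nTg female 1, 225 and 501 CPM in Tg female 1 and 2, and 1698 and 1191 CPM in Tg male 1 and 2. The Tg female libraries were both low and did not overlap the other 3. Endothelial nuclei held 371, 56.3, 98.6, 405 and 426 CPM, and pericytes 461, 129, 153, 409.7 and 672 CPM, with the same pair of libraries low. In fibroblasts it stood at 794, 265, 320, 756 and 813 CPM in the same order, and in cardiomyocytes at 195, 31.8, 84.3, 270 and 361 CPM. Smooth muscle was the lowest type, with 114, 26.2, 34.0, 146 and 209 CPM. The type means ran from 1028 ± 642 CPM in macrophages (SD, n = 5 libraries) to 106 ± 77.1 CPM in smooth muscle, with the Tg female libraries lowest in each. Within libraries, macrophages lay above fibroblasts by 0.61 ± 0.53 on the log2 scale (mean and SD, 4 of 5 libraries), and cardiomyocytes above smooth muscle by 0.80 ± 0.36 (5 of 5). From fibroblasts through lymphatic endothelium and endocardium to pericytes, no type differed from the next in the order beyond this spread. Types further apart in the order were not compared in this way. Against the other types Fkbp5 was higher in macrophages by 1.68 (SE 0.14, edgeR adjusted p = 5.04e-13) and in fibroblasts by 0.92 (SE 0.15), and lower in smooth muscle by −1.90 (SE 0.24), endothelial nuclei by −0.57 and cardiomyocytes by −0.55. Its higher level in lymphatic endothelium (0.52, adjusted p = 0.0182) was lost without Tg female 2 (0.37, edgeR adjusted p = 0.154) and with doublets kept (0.37, adjusted p = 0.0751).

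Between the libraries labelled Tg female and Tg male, Fkbp5 was without overlap and at least 2-fold lower in female in 8 of 8 types. Over all genes with a mean of at least 10 CPM in a type, this held for 1.52% of 77795 pairs of a gene and a type, and 2.49% were higher in female. The log2 ratios of the means for Fkbp5 ran from −2.87 in endocardium to −1.32 in lymphatic endothelium. Tg female 1 was the lowest of the 5 libraries in all 8 types. The endocardial values show the widest gap: 365 CPM in nTg female 1, 42.1 and 140 CPM in Tg female 1 and 2, and 716 and 615 CPM in Tg male 1 and 2. The highest library there was 17.0 times the lowest, against 3.07 times in fibroblasts, the type with the narrowest range.

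The share of nuclei with an Fkbp5 UMI followed the level. With each nucleus thinned to 1000 UMIs, 73.3% of macrophages in nTg female 1 held one (95% exact binomial interval 68.9 to 77.3%). The Tg female libraries had 20.5% (17.0 to 24.5%) and 36.6% (32.2 to 41.2%), and the Tg male libraries 76.0% (72.1 to 79.6%) and 64.6% (60.3 to 68.8%). The intervals cover counting error only. Unthinned, at median depths of 1911 to 2745 UMIs, the same shares were 92.5%, 32.9%, 55.4%, 90.6% and 84.4%, so the Tg female libraries were low on both scales. In cardiomyocytes the thinned shares were 17.7% (15.6 to 20.1%), 2.82% (2.13 to 3.66%), 6.24% (4.79 to 7.98%), 20.6% (18.4 to 22.9%) and 28.3% (25.7 to 30.9%), and the unthinned ones, at 5784 to 8022 UMIs, 62.5%, 16.4%, 30.6%, 74.1% and 83.3%. Smooth muscle, the type with the lowest level, had thinned shares of 14.5% (7.70 to 23.9%), 2.20% (0.602 to 5.53%), 6.33% (2.09 to 14.2%), 9.20% (4.05 to 17.3%) and 18.4% (10.5 to 29.0%), with intervals that overlap between the groups. Thinning left out 36 of 513 and 40 of 504 macrophages in the Tg female libraries and 6 to 33 in the others. No type here is known to lack Fkbp5, so no background share of free RNA can be given.

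Tsc22d3 encodes GILZ, a leucine zipper protein that carries part of the anti-inflammatory action of glucocorticoids in immune cells. It was at 672 CPM in macrophages of nTg female 1, at 192 and 247 CPM in Tg female 1 and 2, and at 714 and 423 CPM in Tg male 1 and 2. Both Tg female values were below the rest. In fibroblasts the values were 368, 130, 160, 331 and 239 CPM. In cardiomyocytes they were 168, 217, 137, 183 and 171 CPM, and here Tg female 1 was the highest library and the groups overlapped. The means of Tg female and Tg male cardiomyocytes were both 177 CPM. Endocardium (275, 96.5, 103, 318 and 228 CPM) and endothelial nuclei (212, 92.3, 85.4, 236 and 151 CPM) had low values in Tg female only. Macrophages stood above fibroblasts in all 5 libraries (log2 difference 0.80 ± 0.22) and fibroblasts above endocardium in all 5 (0.32 ± 0.25). Tested against the other types, Tsc22d3 was higher in macrophages by 1.66 (SE 0.13, edgeR adjusted p = 4.52e-14), cardiomyocytes by 1.04 (SE 0.13, adjusted p = 5.39e-09) and fibroblasts by 0.65, and lower in smooth muscle by −1.80, lymphatic endothelium by −1.10 and pericytes by −0.80. The test uses TMM scaling. By mean CPM, cardiomyocytes (175) lay below macrophages (450), fibroblasts (246) and endocardium (204). Between libraries, Tsc22d3 was without overlap and lower in Tg female in 7 of 8 types, against 16.3% of all pairs of a gene and a type. The gap was 2-fold or more in 4 of them: endothelial, macrophage, endocardial and smooth muscle nuclei. Fibroblasts (−0.98) and lymphatic endothelium (−0.99) lay just short of 2-fold.

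Zbtb16 encodes PLZF, a zinc finger repressor that is strongly induced by glucocorticoids in many tissues. Fibroblasts held 2267 CPM in nTg female 1, 543 and 938 CPM in Tg female 1 and 2, and 2243 and 1892 CPM in Tg male 1 and 2. Cardiomyocytes held 1482, 640, 848, 1491 and 1604 CPM, and macrophages 553, 111, 257, 785 and 823 CPM. In each of the 3 types the Tg female libraries were the low ones. Endothelial nuclei (1703, 386, 672, 1897 and 1715 CPM) and pericytes (1181, 184, 372, 1210.1 and 1145 CPM) followed the same order of groups. Endocardium held 818, 126, 421, 1233 and 1095 CPM and smooth muscle 833, 330.1, 422, 707 and 893 CPM, so the distance between the groups was wider in endocardium than in muscle. Fibroblasts lay above endothelial nuclei by 0.35 ± 0.16 (log2, 5 of 5 libraries) and cardiomyocytes above pericytes by 0.82 ± 0.65 (5 of 5), while the 5 lowest types did not differ from their neighbours beyond the spread. Zbtb16 was higher than in the other types in cardiomyocytes (1.31, SE 0.13, edgeR adjusted p = 5.46e-12), fibroblasts (0.84, SE 0.13) and endothelial nuclei (0.52, SE 0.13). It was lower in macrophages (−1.09, SE 0.16, adjusted p = 1.29e-07), the type in which Fkbp5 and Tsc22d3 were highest, and in endocardium (−0.50). These test values use TMM scaling. By mean CPM, Zbtb16 was higher in fibroblasts (1577) than in cardiomyocytes (1213). The lower level in lymphatic endothelium (−0.52) was lost without nTg female 1 (−0.45, edgeR adjusted p = 0.0656) and with scaling to total UMIs (−0.34, adjusted p = 0.0855). Tg female and Tg male libraries were 2-fold apart without overlap in 8 of 8 types, from −2.12 in macrophages to −1.06 in cardiomyocytes.

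Hif3a encodes a hypoxia-inducible factor subunit with isoforms that oppose Hif1a, and it is a known glucocorticoid target in several tissues. Its UMIs were few. Endocardium had the highest mean, 54.6 ± 42.4 CPM, from 61.05 CPM in nTg female 1, 9.37 and 16.0 CPM in Tg female 1 and 2, and 75.6 and 111 CPM in Tg male 1 and 2. Macrophages held 24.1, 4.29, 3.66, 36.4 and 54.96 CPM, where the Tg female values rest on 5 and 4 UMIs. Fibroblasts held 46.4, 9.99, 25.4, 23.1 and 45.4 CPM, and Tg female 2 there overlapped Tg male 1. Pericytes (71.7, 7.54, 20.9, 30.2 and 65.2 CPM) and smooth muscle (43.0, 6.99, 24.3, 47.6 and 81.2 CPM) had no such overlap. No neighbours in the order of types differed beyond the spread. Against the other types Hif3a was higher in endocardium (1.02, SE 0.23, edgeR adjusted p = 0.000423) and lower in endothelial nuclei (−0.88, SE 0.22). The lower call in lymphatic endothelium (−1.13, 2 to 11 UMIs per library) was lost without Tg male 1 (−0.999, edgeR adjusted p = 0.0535), without Tg male 2 (−1.11, adjusted p = 0.101) and with scaling to total UMIs (−0.94, adjusted p = 0.0664). Hif3a was 2-fold apart and lower in Tg female in 6 of 8 types and overlapped in fibroblasts and cardiomyocytes.

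Ddit4 encodes REDD1, which restrains mTOR complex signalling under stress, hypoxia and glucocorticoids. Endothelial nuclei held 154 CPM in nTg female 1, 24.5 and 47.3 CPM in Tg female 1 and 2, and 137 and 105 CPM in Tg male 1 and 2. In macrophages it stood at 67.2, 3.43, 9.15, 83.0 and 75.9 CPM, from 92, 4, 10, 123 and 98 UMIs. That was the largest female and male gap of any member (log2 −3.66). Endocardium held 88.2, 24.3, 36.6, 179 and 119.6 CPM and lymphatic endothelium 136, 45.2, 43.4, 126 and 88.7 CPM, and again the Tg female libraries lay below the other 3. Pericytes were at the other end, with 9, 0, 1, 9 and 9 UMIs, and a count of 0 there allows up to 2.51 CPM in Tg female 1 (3 UMIs). Endothelial, endocardial and lymphatic endothelial means (93.6, 89.6 and 87.9 CPM) did not differ beyond the spread, and fibroblasts lay above cardiomyocytes by 1.35 ± 0.45 (log2, 5 of 5 libraries). In the test Ddit4 was higher in endothelial (1.79, SE 0.17, edgeR adjusted p = 1.11e-11), endocardial (1.70, SE 0.21) and lymphatic endothelial nuclei (1.65, SE 0.25). It was lower in pericytes (−2.93, SE 0.38, adjusted p = 2.37e-08), smooth muscle (−2.06, SE 0.53) and cardiomyocytes (−0.84, SE 0.21). The higher level in macrophages (0.59, adjusted p = 0.0178) was lost without nTg female 1 (0.53, edgeR adjusted p = 0.0679), Tg male 1 (0.47, 0.134) or Tg male 2 (0.39, 0.191), with DESeq2 (0.44, 0.0953) and with doublets kept (0.36, 0.0798). In all 6 types with at least 10 CPM it was 2-fold apart and lower in Tg female.

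Sgk1 encodes a kinase that raises sodium channel and transporter activity and is a target of both corticoid receptors. It was the most endothelial of the members. Endothelial nuclei held 199 CPM in nTg female 1, 117 and 195 CPM in Tg female 1 and 2, and 221 and 200 CPM in Tg male 1 and 2, and cardiomyocytes 2.08, 1.35, 1.92, 2.59 and 1.76 CPM. All 5 libraries placed endothelium first, above lymphatic endothelium by 1.65 ± 0.35 (log2), and endocardium above macrophages by 0.94 ± 0.32. Endocardium held 57.0, 29.97, 52.7, 68.3 and 53.3 CPM and lymphatic endothelium 53.4, 41.4, 79.6, 49.6 and 72.0 CPM, where Tg female 2 was the highest library and Tg female 1 the lowest. Sgk1 was higher in endothelial nuclei by 3.17 (SE 0.09, edgeR adjusted p = 5.17e-28), lymphatic endothelium by 1.15 (SE 0.17) and endocardium by 1.04 (SE 0.14), and lower in cardiomyocytes by −3.65 (SE 0.16, adjusted p = 2.08e-22) and fibroblasts by −0.72. In pericytes (−0.43, adjusted p = 0.0324) the lower call held in 1 of 10 alternatives, leaving out Tg male 2. It was lost without nTg female 1 (−0.49, edgeR adjusted p = 0.0568), Tg female 1 (−0.33, 0.153), Tg female 2 (−0.34, 0.121) or Tg male 1 (−0.33, 0.168), and stood at −0.03 with doublets kept. Tg female and Tg male libraries were not 2-fold apart without overlap in any of the 7 types measured. In endothelial nuclei (−0.43), pericytes (−0.98) and endocardium (−0.56) they did not overlap, with Tg female lower. That alone, with no limit on the ratio, held for 16.3% of all pairs of a gene and a type.

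Mt1 and Mt2 encode metallothioneins, small cysteine-rich proteins that bind zinc and copper and respond to metals as well as to glucocorticoids. Mt1 in cardiomyocytes was at 292 CPM in nTg female 1, 68.6 and 229 CPM in Tg female 1 and 2, and 325 and 206 CPM in Tg male 1 and 2. Mt2 there was at 30.05, 5.69, 24.6, 38.5 and 31.0 CPM. Tg female 1 was low for both genes, and Tg female 2 was within the range of the other 3 for Mt1 and just under it for Mt2. In the other 7 types Mt1 averaged 25.6 to 48.0 CPM and Mt2 1.67 to 6.18 CPM. In endocardium Mt1 was at 28.5, 17.8, 57.3, 18.6 and 25.9 CPM, and in fibroblasts at 53.9, 18.8, 34.0, 35.2 and 34.5 CPM, so Tg female 1 was lowest in both types and Tg female 2 highest in endocardium. Cardiomyocytes lay above macrophages, the next type, in all 5 libraries for Mt1 (2.07 ± 0.63, log2) and Mt2 (1.84 ± 1.011), and the remaining types did not differ from their neighbours beyond the spread. The test placed Mt1 (3.22, SE 0.11, edgeR adjusted p = 6.19e-26) and Mt2 (3.40, SE 0.19, adjusted p = 7.47e-19) higher in cardiomyocytes. Mt1 was lower in lymphatic endothelium (−1.10) and endocardium (−0.84), and its lower call in fibroblasts (−0.50) was lost without Tg female 2 (−0.34, edgeR adjusted p = 0.0545). For Mt1, 0 of 8 types were 2-fold apart, and its female and male log2 ratio ran from −0.83 in cardiomyocytes to 0.79 in lymphatic endothelium. Mt2 passed 10 CPM in cardiomyocytes only, where Tg female was lower by −1.20 without overlap. In the endothelial cluster led by the arterial genes Sema3g and Gja5, Mt2 was also above 10 CPM, with 22.6, 3.97, 5.89, 19.8 and 17.2 CPM.

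Bcl2l1 encodes Bcl-x, an inhibitor of mitochondrial apoptosis. It was at 823 CPM in endothelial nuclei of nTg female 1, 300.1 and 390 CPM in Tg female 1 and 2, and 814 and 811 CPM in Tg male 1 and 2. The Tg female libraries were low and the other 3 nearly level. In cardiomyocytes the values were 169, 55.6, 72.0, 210 and 159 CPM, and in macrophages 251, 187, 233, 192 and 105 CPM, with Tg male 2 as the lowest library. Endocardium held 336, 194, 208, 567 and 556 CPM and lymphatic endothelium 392, 199.7, 214, 467 and 385 CPM, again with both Tg female libraries lowest. Endothelium lay above endocardium in all 5 libraries (0.78 ± 0.32, log2) and lymphatic endothelium above pericytes (0.41 ± 0.27). Bcl2l1 was higher in endothelial nuclei (1.49, SE 0.15, edgeR adjusted p = 2.83e-11) and lower in fibroblasts (−0.93, SE 0.18). A higher level in endocardium (0.61) was lost without Tg male 1 (0.51, edgeR adjusted p = 0.053), a lower one in smooth muscle (−0.75) without nTg female 1 (−0.57, adjusted p = 0.112), and a lower one in cardiomyocytes (−0.45) without Tg female 1 (−0.34, adjusted p = 0.098) or Tg female 2 (−0.36, adjusted p = 0.0614). It was 2-fold apart and lower in Tg female in endothelial, cardiomyocyte, endocardial and lymphatic endothelial nuclei, 4 of 8 types, and in macrophages the log2 ratio was 0.50 with overlap.

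Of 72 pairs of a member and a type, 62 averaged at least 10 CPM. In 37 of these Tg female libraries were lower than Tg male libraries, without overlap and at least 2-fold, and in 0 higher, against the 1.52% and 2.49% of all genes. Since the members were proposed with this difference known, nothing further is read from the 37. Over all 62 pairs the median log2 ratio was −1.22, against 0.04 over all genes, and 57 of the 62 ratios were below 0. With 2 libraries a side the count rests on few values, and the share of all pairs moved with it. Without Tg female 1 it was 32 lower and 3 higher (4.40% and 5.46% of all pairs). Without Tg female 2 it was 47 and 0 (2.92% and 2.66%). Without Tg male 1 it was 37 and 2 (2.32% and 5.36%), and without Tg male 2 it was 39 and 0 (2.14% and 4.04%). By gene, Fkbp5, Zbtb16 and Ddit4 were apart in every type measured, Hif3a in 6 of 8, Tsc22d3 and Bcl2l1 in 4 of 8, Mt2 in 1 of 1, and Mt1 and Sgk1 in none (0 of 8 and 0 of 7). By type, the number apart ran from 3 of 8 in fibroblasts to 6 of 8 in endothelial and endocardial nuclei.

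**Figure D3:**
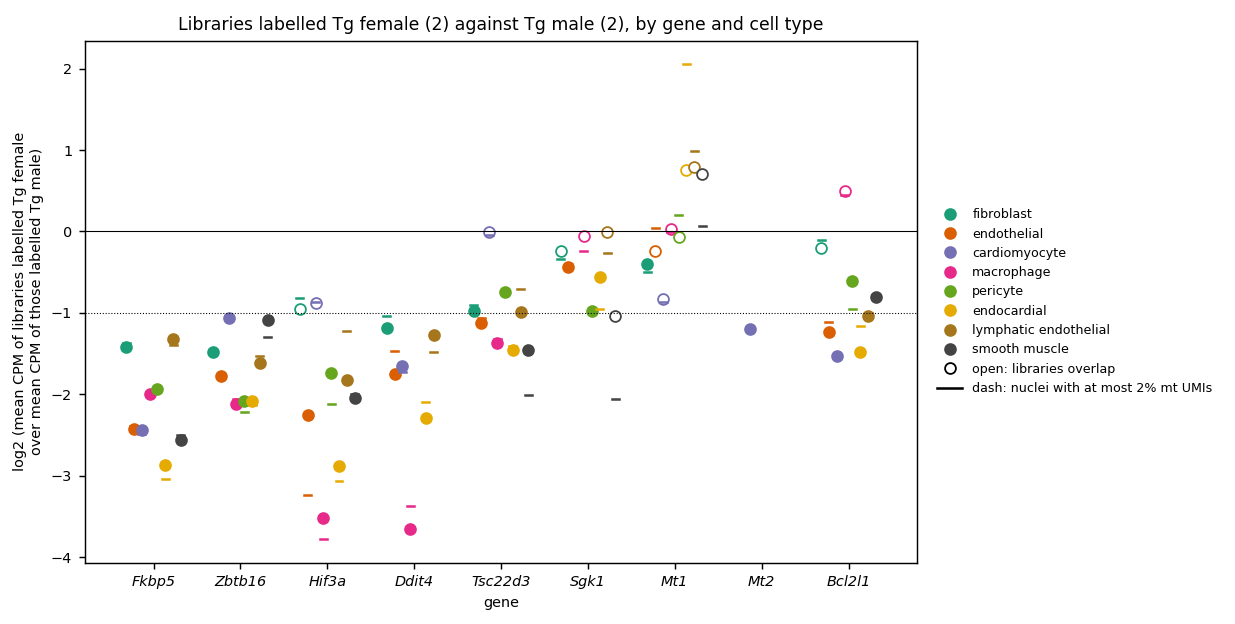
Log2 ratio of the mean CPM of the 2 libraries labelled Tg female to that of the 2 labelled Tg male (vertical axis) for each gene (horizontal axis), with 1 point per cell type averaging at least 10 CPM, open where the libraries of the groups overlap, and a dash for the same ratio in nuclei with at most 2% mitochondrial UMIs. All points of Fkbp5, Zbtb16 and Ddit4 are filled and lie under the dotted line of a 2-fold lower level at −1, and the points of Mt1 run from −0.83 to 0.79.

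The single nTg female library was nearer to the Tg male mean than to the Tg female mean in 56 of the 62 pairs (54.2% of all pairs), and above both Tg female libraries in 55 (27.4% of all). In 37 it was above both and at least 2 times their mean, against 1.94% of all pairs. Adding it to the female side left 13 of the 62 pairs apart and lower, against 0.82% of all pairs. Tg female 1 was the lowest library in 52 of 62 pairs (16.7% of all pairs), Tg female 2 in 7 and Tg male 2 in 3; the highest was Tg male 1 in 23, nTg female 1 in 18, Tg male 2 in 15, Tg female 2 in 5 and Tg female 1 in 1. The Ccna2 values of nTg female 1 and Tg female 1 would match the labels if these 2 libraries were exchanged, which was not settled here; the library lowest in 52 of the 62 pairs would then be the nTg one. With 1 library labelled nTg, sex, genotype, and the collection and handling of the single hearts cannot be told apart.

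Other measures of the libraries are given here without weighing. The median mitochondrial share of UMIs per nucleus was 2.52% in nTg female 1, 1.41% and 1.80% in Tg female 1 and 2, and 1.88% and 2.41% in Tg male 1 and 2, so over all nuclei the Tg female libraries were lowest here too. This did not hold in every type: in macrophages the median was 1.89% in Tg female 2 and 1.85% in Tg male 1. Among the 16983 nuclei with at most 2% mitochondrial UMIs, 36 of 62 pairs were apart and lower in Tg female and 1 was higher (2.34% and 4.03% of all pairs), with a median log2 ratio of −1.22. Fkbp5 in macrophages then held 1589, 237, 522, 1740.3 and 1239 CPM. Of 70 pairs of circadian clock genes, 3 were apart and lower in Tg female and 10 higher, with a median log2 ratio of 0.06. Nr1d1, a repressor at the core of the clock, was higher in 6 of 8 types (median 1.43) and Dbp in 3 (0.77), and Cry1 was lower in 2 (−0.56). Of 32 pairs of immediate early and heat shock genes, which rise within minutes of stimulation or tissue handling, 9 were apart and higher in Tg female and 1 lower, with a median of 0.67, led by Junb (1.12, 5 of 8 types). Their summed level, with the UMIs of all types pooled, was 74.6, 84.3, 142, 68.6 and 79.4 CPM. It was highest in Tg female 2, while most members were lowest in Tg female 1. The part of nuclear quality, time of day or handling in the members' levels was not tested.

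The low levels were also counted by cluster. Macrophages, pericytes, endocardium, lymphatic endothelium and smooth muscle each fell into a single cluster, so their values repeat those of the types. Only fibroblasts, endothelial nuclei and cardiomyocytes were divided further. Among clusters with at least 50 nuclei in every library, Fkbp5 and Zbtb16 were apart and lower in Tg female in 14 of 14, Ddit4 in 11 of 12, Hif3a in 8 of 13, Tsc22d3 in 8 of 14, Bcl2l1 in 7 of 14, Mt2 in 3 of 3, Mt1 in 1 of 14 and Sgk1 in 0 of 12. That made 66 of 110 pairs of a member and a cluster lower and 0 higher, against 1.5% and 2.4% of 136299 pairs over all genes, and, as for the types, nothing further is read from the count. Cardiomyocytes fell mainly into cluster 3, led by Ankrd1 and Nppb, genes of stretched or stressed muscle, and cluster 5. Cluster 3 held 29.3% of cardiomyocytes in nTg female 1, 54.7% and 74.0% in Tg female 1 and 2, and 28.6% and 33.1% in Tg male 1 and 2. Fkbp5 was at 216, 34.8, 89.0, 269 and 389 CPM in cluster 3 and at 184, 27.5, 67.0, 269 and 348 CPM in cluster 5, so the gap was as large in each of the 2 clusters as over all cardiomyocytes. In fibroblasts, cluster 10 held 47.1% of the nuclei of Tg female 2 and 7.30 to 12.6% of the others; Fkbp5 there was at 889, 252, 326, 804 and 718 CPM. Among the rare types, 191 Schwann nuclei held 449, 101, 128, 433 and 294 CPM of Fkbp5 and 961, 262, 317, 677 and 575 CPM of Bcl2l1, from 10 to 114 UMIs each, with Tg female 1 and 2 the lowest for both genes. Other rare types did not all show this. The 127 T and NK lymphocyte nuclei held 565, 108, 283, 353 and 194 CPM of Fkbp5 (7 to 33 UMIs), where Tg female 2 overlapped the Tg male libraries. They held 123, 185, 678, 565 and 625 CPM of Zbtb16 (5 to 79 UMIs), with Tg female 2 the highest library. The 105 mesothelial nuclei had Tg female 1 and 2 lowest for Fkbp5 (924, 175, 398, 641 and 689 CPM, from 7 to 106 UMIs). Only 3 of these nuclei came from Tg male 1 and 7 from nTg female 1. For Bcl2l1, Tg female 1 and 2 were not the lowest (42.0, 233, 176, 183 and 117 CPM, from 1 to 28 UMIs).

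Members varied together over the 40 sums of a library and a type to different degrees, after removing each type's mean. Pearson's r of the log2(CPM + 1) deviations was 0.92 for Fkbp5 and Zbtb16, 0.88 for Zbtb16 and Hif3a, 0.86 for Fkbp5 and Hif3a, 0.80 for Fkbp5 and Tsc22d3, 0.76 for Fkbp5 and Bcl2l1, 0.68 for Fkbp5 and Ddit4 and 0.63 for Fkbp5 and Sgk1. Fkbp5 and Mt1 gave 0.34, Fkbp5 and Mt2 0.11, and Mt1 and Mt2, neighbours on chromosome 8, 0.27. Outside cardiomyocytes Mt2 averaged 1.67 to 6.18 CPM, and counting error at such levels can hold its r down. These values therefore do not show whether Mt1 and Mt2 vary apart. In cardiomyocytes both genes were lowest in Tg female 1 and highest in Tg male 1. The 40 sums come from 5 libraries and share their depth and handling, so r is a description; over 8246 genes r with Fkbp5 had a median of −0.06 and a 99th percentile of 0.58. Between Fkbp5, Zbtb16, Hif3a and Tsc22d3 r was at least 0.73, while Sgk1 had 0.48 to 0.63 with these 4 and the metallothioneins at most 0.34.

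**Figure D4:**
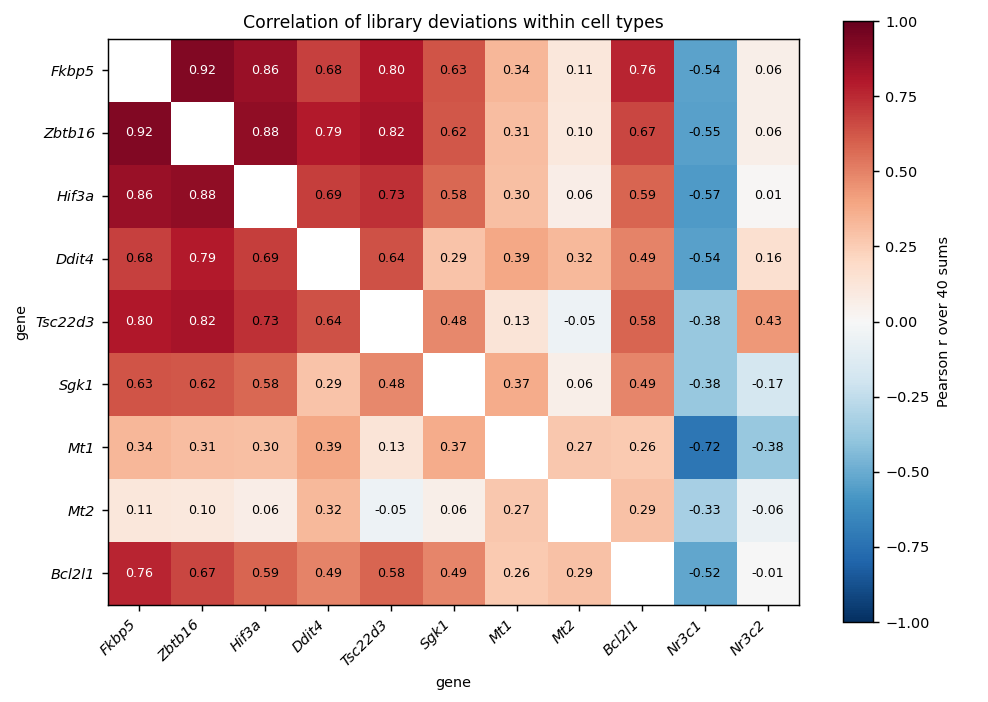
Pearson's r (colour and number) of each member with the other members, Nr3c1 and Nr3c2, over 40 sums (5 libraries by 8 types) of the log2(CPM + 1) deviation from the type's mean. Fkbp5, Zbtb16, Hif3a and Tsc22d3 form a block with r from 0.73 to 0.92, and Mt1 and Mt2 have r of at most 0.39 with any other member. Outside cardiomyocytes Mt2 averaged under 10 CPM, and counting error there can hold its r down.

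The genes most like a member by the same measure were Gm22146 (r = 0.92), mt-Co1 (0.88) and Ccnd3 (0.85) for Fkbp5, mt-Co1 (0.89), Ccnd3 (0.85) and Gm22146 (0.85) for Zbtb16, and mt-Co1 (0.90), mt-Nd3 (0.82) and Gm22146 (0.81) for Hif3a. mt-Co1, a mitochondrial transcript, averaged 7755, 4231, 5132, 6636 and 8280 CPM over types in the 5 libraries, lowest in Tg female 1 in 8 of 8 types, with no type 2-fold apart. For Ddit4 they were Nfkbia (0.81), Slc10a6 (0.76) and Glul (0.75), of which Nfkbia and Glul are known glucocorticoid targets, and for Tsc22d3 Aff1 (0.83), Mlxip (0.83) and Jade2 (0.80). Sgk1 was most like Ifrd1 (0.76), Ppp5c (0.68) and Gm22146 (0.68), and Bcl2l1 like Gm22146 (0.72), Irf2bp2 (0.72) and Ccnd3 (0.71). The metallothioneins had other partners: Gm42418 (0.76), Fth1 (0.73) and Malat1 (0.72) for Mt1, and Tmem41b (0.66), Eif3a (0.64) and Ifi207 (0.61) for Mt2. The partners of Mt2 are uncertain, since its UMIs were few outside cardiomyocytes.

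Nr3c1 was the highest in Tg female 1 in 8 of 8 types, the library in which most members were lowest: in macrophages it ranged from 307 to 399 CPM and in cardiomyocytes from 134 to 221 CPM. Its r with the members ran from −0.72 for Mt1 to −0.33 for Mt2. By type Nr3c1 was higher in macrophages (0.60, SE 0.07, edgeR adjusted p = 1.18e-09) and lymphatic endothelium (0.35) and lower in smooth muscle (−0.86) and endocardium (−0.36). Nr3c2 was higher in cardiomyocytes (1.42, SE 0.08), lymphatic endothelium (1.25) and smooth muscle (0.80) and lower in macrophages (−1.49). Between libraries it stood in macrophages at 187, 145, 112, 165 and 146 CPM, with both Tg female values below the other 3 (log2 −0.28), and Tg female and Tg male overlapped in the other 7 types. Hsd11b1, which regenerates active hormone from its inactive form, was higher in fibroblasts by 3.95 (SE 0.24, edgeR adjusted p = 5.45e-17) and pericytes by 2.41. In fibroblasts it averaged 131 CPM in Tg female and 292 CPM in Tg male libraries without overlap (log2 −1.15), and in cardiomyocytes 22.1 and 4.40 CPM (2.33). By library the fibroblast values were 134, 142, 121, 257 and 327 CPM, so nTg female 1 lay with the Tg female libraries, unlike for most members. The cardiomyocyte values were 3.85, 20.5, 23.8, 5.45 and 3.34 CPM, with nTg female 1 beside the Tg male libraries. Over the list of receptors, converting enzymes and cofactors, 1 of 84 pairs was apart and lower and 1 higher, with a median of 0.04; Fkbp4, the co-chaperone that counters Fkbp5, had a median of −0.14.

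In a list of 25 other glucocorticoid-responsive genes, 23 of 157 pairs were apart and lower in Tg female (14.6%) and 0 higher, over 15 of the genes, with a median log2 ratio of −0.41. The genes of this list with the largest median ratios were Lcn2 (−1.30 in lymphatic endothelium, the 1 type measured), Pdk4 (−0.92, apart in 3 of 7 types) and Errfi1 (−0.89, 2 of 7). Pdk4, the kinase that shuts off pyruvate dehydrogenase, averaged 312 CPM in Tg female and 826 CPM in Tg male cardiomyocytes. Summed over the list, with the UMIs of all types pooled, these 25 genes held 2656, 1869, 2090, 3032 and 2972 CPM. The 9 members held 2932, 982, 1475, 3045 and 2836 CPM. Types with more UMIs weigh more in these values. Between types, 13 of the 25 passed as higher and 9 as lower in cardiomyocytes, against 41% and 36.5% of all genes. In macrophages 8 and 11 passed, against 31% and 30.3%. With shares of this size these counts are no result about the list.

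Among hypoxia-responsive genes, the class that Hif3a and Ddit4 could also follow, 5 of 56 pairs were apart and lower and 5 higher, with a median of −0.03; Bnip3 had a median of −1.10 and was lower in 4 types, Ankrd37 0.90 and higher in 2, and Adm −0.51. Genes of the integrated stress response had 0 of 11 pairs apart, with medians of 0.29 for Atf5, 0.26 for Atf4 and 0.15 for Trib3. Of metal-responsive genes other than Mt1 and Mt2, 0 of 22 pairs were lower and 1 higher, with medians of −0.23 for Slc39a14, −0.18 for Mtf1 and −0.04 for Slc30a1. Egr1 (0.76) and Fos (0.74) were the other immediate early genes with the largest medians. These counts describe the lists beside the members, and no list was tested.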

How the data were processed

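The authors deposited raw UMI counts per gene and barcode (Cell Ranger 7.0.0, per the file headers; mm10, per the submitters' processing notes), with no normalization. Members and gene lists were chosen with earlier results of these data known. Libraries whose matrix did not have as many columns as their barcode list were left out. The filter asked for 200 genes and less than 5% mitochondrial UMIs. Doublets called by Scrublet (scanpy 1.11.5, expected rate 6%) were removed, 5.16 to 9.68% per library; in Tg female 2, where under 0.5% were called, the highest-scoring 5% were removed. Nuclei were clustered (2000 variable genes, 30 components centred within library, unweighted graph of 15 neighbours, Leiden resolution 1) without members, listed genes, Ccna2 and sex-linked genes. Clusters were named when at least 3 fixed markers of a type were raised and it led the next type by 0.5 (mean log2). UMIs were summed per library and type and tested with edgeR 4.0.16 (R 4.3.3; TMM, filterByExpr, quasi-likelihood, Benjamini-Hochberg, threshold 0.05), a script checked on simulated data. All 40 sums were in 1 fit and shared its estimate of the spread. With the library as a block, p-values measure how type differences vary between these libraries, not how the libraries' levels differ. Nothing says whether libraries are separate animals. Named genes were all members, Nr3c1, Nr3c2, Hsd11b1, the 3 genes of each list with the largest absolute median female and male ratio, and the 3 genes most like each member (at least 20 CPM); genes that lead a cluster were named after their values were seen. Alternatives used DESeq2 1.42.0, other scaling, filters, resolution, thinning and each library left out.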

Additional observations from a re-analysis of the deposited data

How the results depend on the processing

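Of 44 calls of a member in a type, followed over 10 alternatives, 414 of the resulting values kept direction and call, 26 lost the call and 0 reversed; 9 different calls were lost at least once and are named above. Scaling to total UMIs added 3 calls: Hif3a lower in cardiomyocytes (0.13 with TMM), Tsc22d3 higher in endocardium and Bcl2l1 higher in lymphatic endothelium. Counting higher and lower together, the number of members called in a type stayed within 1.5 times in each alternative. By direction, the lower calls in lymphatic endothelium went from 4 to 2 with scaling to total UMIs (Mt1 and Tsc22d3 were left). The 1 lower call in macrophages became 2, with Bcl2l1, with no low-count filter, without Tg female 1 and without Tg female 2. The 0 higher calls in smooth muscle became 1, Hif3a, in DESeq2. Counts of all genes moved more: with scaling to total UMIs, cardiomyocytes had 3462 higher and 8002 lower in place of 5721 and 5102, and lymphatic endothelium 1497 lower in place of 2403; with no low-count filter, fibroblasts had 6509 higher in place of 4071. The count of 37 lower pairs was 43 at a 1.5-fold limit (4.82% of all pairs) and 39 with TMM-scaled totals (1.74%). It was 37 at Leiden resolution 0.5 (1.53%) and 39 with doublets kept (1.34%). With the nTg library on the female side it was 13 (0.82%), and with each Tg library left out 32 to 47 (2.14% to 4.40%). The count of higher pairs, 0, was 0 to 3 with each Tg library left out (2.66% to 5.46% of all pairs). It was 1 in nuclei with at most 2% mitochondrial UMIs (4.03%), an alternative chosen after seeing the data. Thinned to 500 UMIs, the shares of macrophages with Fkbp5 were 52.3%, 10.5%, 21.4%, 53.4% and 42.4%. Of the 27 places in the lists of 3 genes most like each member, in which some genes repeat, 21 were unchanged with a pseudocount of 5. No paired analysis was possible because the library is already the block of the type test, the replicate number is nested in it, and the female and male difference comes from no test. Depth limits the small types: sums under 10 UMIs occurred for Hif3a, Ddit4, Mt1, Mt2 and Sgk1, and in 1 library of smooth muscle each for Fkbp5 and Tsc22d3.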
